A study of Mus musculus with 24 samples.

Results

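The regions described here are candidate enhancers that mouse MLL-AF10 leukemia held and normal granulocyte-monocyte progenitors (GMP) lacked, and that appeared in the leukemia list called k- and not in the one called k+. They were chosen by overlap alone: from the authors' list of gained regions on chromosomes 1 to 19, those sharing at least 1 bp with a k- region and none with a k+ region were kept. This rule found 7533 regions among the 14959 gained regions of these chromosomes and the 15189 of the whole list, and they are called k- only regions below. Of the other gained regions on these chromosomes, 3183 met k+ only and 4243 met both leukemia lists. By construction of the rule, 50.4% of the gained regions were k- only, and nothing is read from that share.

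The series applied ChIP-seq to bone marrow cells of C57BL/6 mice: normal GMP, leukemia stem cells (LSC) and mature AML cells (mAML), with H3K27ac, H3K4me1, H3K4me3 and input libraries from each of the 3 populations. Leukemia cells carried the MLL-AF10 fusion and were grown in RPMI 1640 with serum and WEHI-conditioned medium, and the labels give no treatment for any of these 3 populations. Each population had 1 sample per antibody in this set. A further set of LSC libraries, of input, H3K27ac and P300, was labelled 0, 24, 48 and 72 h. It belongs to a course with A-485, which blocks the acetyltransferases p300 and CBP. Its libraries were not analysed here, and the region lists name no sample they were drawn from. What k+ and k- abbreviate, and which of LSC and mAML each list stands for, is not defined in the labels, so both keep their own names. The sources used here do not say whether the cells came from several animals or from a single leukemia.

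Enhancers are stretches of DNA that bind transcription factors and raise transcription of a gene at a distance. H3K4me1 marks enhancers that are primed or in use, H3K27ac marks those in use, and H3K4me3 marks promoters. MLL fusion proteins keep genes of the stem and progenitor programme transcribed in myeloid cells, and p300 and CBP are the enzymes that deposit H3K27ac. Myeloid cells are known to add and retire enhancers as they mature, which is why lists from populations of different maturity are compared region by region.

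The lists hold positions and no score, signal or read count. The depth behind each region is therefore unknown, no level of any mark can be given, and the cell types could not be checked against marker genes. With 1 sample per population there is no replicate error and no test, so every comparison describes these lists. Brackets give exact Clopper-Pearson 95% intervals. They cover counting error only and are too narrow, because neighbouring regions are not independent.

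Every k- only region was a single region of the k- list, and none had been joined from several. All 7533 carried the coordinates of 1 k- region. They made up 55.2% (54.3 to 56.0%) of the 13650 k- regions on these chromosomes, and covered 5.82 Mb of the 16.6 Mb that the k- list spans there. Another 278 k- regions met neither k+ nor GMP and were still not k- only. All 278 touched a k+ region without sharing a base pair. Whether each had been joined to that k+ region in a leukemia region was not checked. The k+ list on the same chromosomes was shorter, with 9295 regions over 10.3 Mb, and the GMP list held 3186 regions over 2.30 Mb. With the k- list cut to its 9295 widest regions, as many as k+ holds, 4127 gained regions were k- only. That cut drops the narrowest k- regions, which most often met no k+ region. The lower number is thus by construction of a cut on width and does not isolate list length.

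The k- only regions were narrow. Their median width was 600 bp, with quartiles of 400 and 1000 bp. The narrowest class, at the 200 bp grid on which all lists are drawn, held 1752 regions or 23.3%, and 90% of the regions measured at most 1600 bp. Regions of 1000 bp or more numbered 2354, or 31.2%, and those over 3000 bp numbered 69. The k+ only regions were narrower still, with a median of 400 bp and 19.4% at 1000 bp or more. Gained regions of both lists had a median of 1800 bp, and 84.6% reached 1000 bp.

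**Figure D1:**
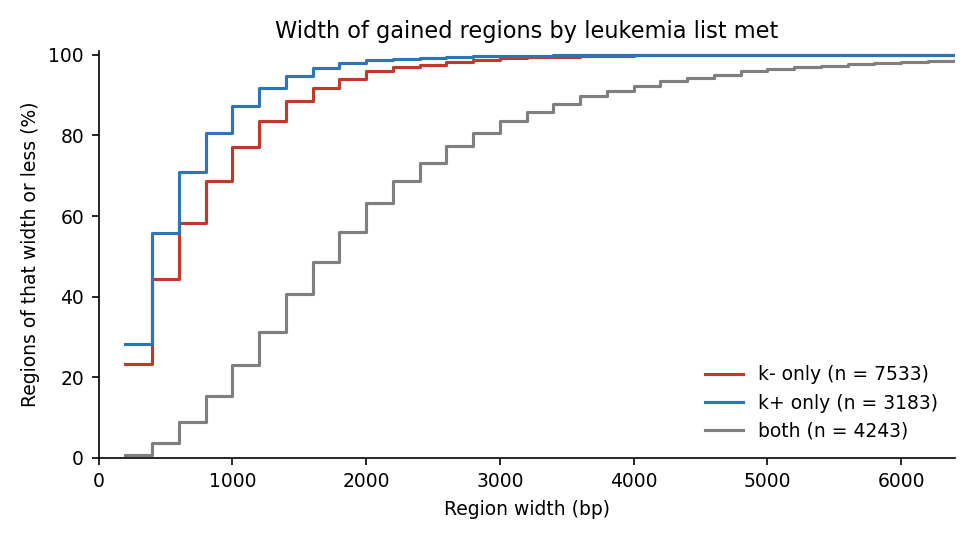
Cumulative share of gained regions on chromosomes 1 to 19 (vertical axis, %) by region width (horizontal axis, bp), for k- only, k+ only and both lists. The k- only curve passes 50% at 600 bp, between k+ only at 400 bp and both lists at 1800 bp.

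Part of the gap to regions of both lists comes from joining, since a region of both lists is the union of its k+ and k- parts. The k- list alone gives the comparison without it. Among k- regions as deposited, those that met k+ and no GMP region had a median of 1400 bp (n = 4390, quartiles 800 and 2200 bp), against 600 bp for the k- only regions. The k- regions that met GMP but not k+ lay between, with a median of 1200 bp (n = 432). In the k+ list, regions that met k- and no GMP region had a median of 1000 bp (n = 4680) and those that met neither had 400 bp (n = 3455). The k+ only regions (n = 3183) also had 400 bp. The k+ regions that met GMP but not k- were not compared. So regions found in a single leukemia list were the narrower ones within each list. A wider region has more room to meet another list, and its part in this order was not tested.

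Sorted by width, the k- only share of gained regions fell from 65.4% (63.6 to 67.2%) at 200 bp to 54.1% (51.2 to 57.0%) at 1000 bp. From 2200 to 3000 bp it was 20.9% (18.5 to 23.3%), and over 3000 bp it was 8.90% (6.99 to 11.1%). The k+ only share fell from 33.6% to 1.03% over the same classes, and the share of both lists rose from 1.05% to 90.1%. On the k- list itself, among regions outside GMP, 86.9% of those of 200 bp and 12.2% of those over 3000 bp met no k+ region. For the k+ list the corresponding shares without a k- region were 65.7% and 3.10%.

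**Figure D2:**
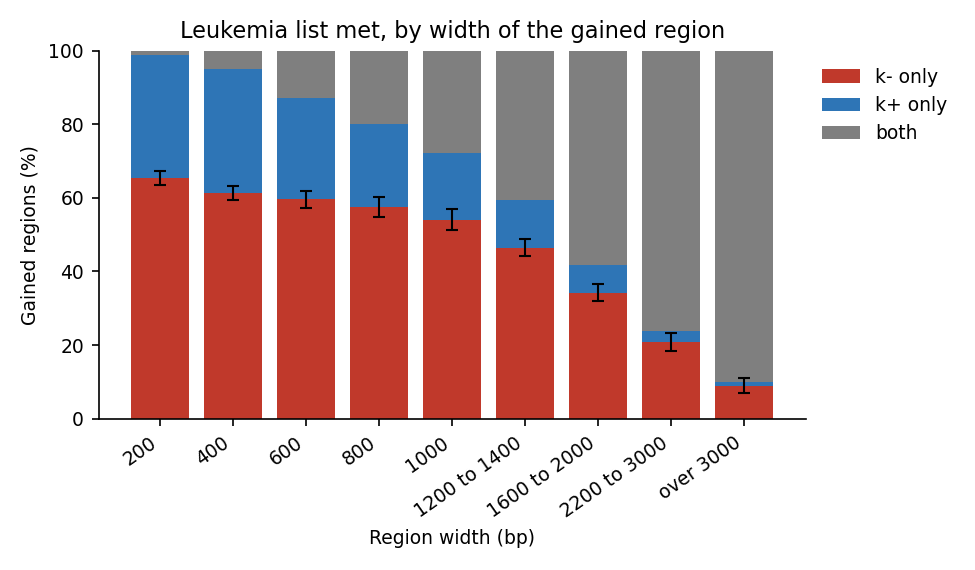
Make-up of the gained regions (vertical axis, %) in classes of region width (horizontal axis, bp), with the exact 95% interval of the k- only share as black bars. The k- only share lies at 65.4% for 200 bp and at 8.90% over 3000 bp, while regions of both lists go from 1.05% to 90.1%.

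The 5 widest k- only regions lay on 5 chromosomes and in different surroundings. The widest covered 6200 bp of chromosome 19 in band qB, chr19:18689001-18695200 (mm9, as all positions here). Its nearest k+ region was 30.6 kb away and its nearest GMP region, a lost one, 35.6 kb away. The second, of 5600 bp at chr4:135730201-135735800 in band qD3, had 0 k+ and 0 GMP regions within 100 kb and 1 other k- only region in its domain. The third, of 5200 bp at chr1:39949401-39954600 in band qB, stood 76.2 kb from k+ and 314.2 kb from GMP. Next in width was a region close to other lists: at chr6:116627801-116632800 in band qE3, 5000 bp wide, it lay 0.8 kb from a k+ only gained region and 13.6 kb from a GMP region. The last, of 4800 bp at chr13:115999001-116003800 in band qD2.2, was 1.21 Mb from the nearest k+ region and 374.2 kb from the nearest GMP region. Wide regions of the k- list alone thus included both isolated sites and sites beside k+ regions.

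At the edge of the rule, 142 k- only regions lay 200 bp, a single grid step, from a k+ region. They had a median width of 400 bp. The k+ region beside them was a k+ only gained region in 77 cases, or 54.2% (45.7 to 62.6%). It was part of a gained region of both lists in 56, or 39.4% (31.3 to 48.0%). These kinds made up 34.2 and 50.3% of the whole k+ list. The widest of them, 4200 bp at chr14:122357801-122362000 in band qE5, had 8 k+, 14 k- (itself included) and 5 GMP regions within 100 kb. Just outside the rule, 186 gained regions counted as both although their k+ and k- parts touched without sharing a base pair. They had a median width of 1000 bp. In another view of that edge, k+ covered 200 bp in 326 of the 4243 gained regions of both lists.

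Most k- only regions were not at that edge. The gap to the nearest k+ region had a median of 19.6 kb, with quartiles of 4.8 and 77 kb. Within 1 kb of a k+ region lay 608 of them, or 8.07% (7.47 to 8.71%). Within 12.5 kb, a distance commonly used to stitch enhancers into clusters, lay 3115 or 41.4% (40.2 to 42.5%), and within 100 kb lay 5971 or 79.3% (78.3 to 80.2%). The other 1562 had no k+ region within 100 kb, and 143 had none within 1 Mb. A region at the median gap was chr19:6296401-6300400 in band qA. At 4000 bp it was far wider than the median of 600 bp, so it is not typical in width. Within 100 kb lay 3 k+, 6 k- (itself included) and 1 GMP region.

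The median gap to k+ had no steady order by width. It was 16.9 kb at 200 bp, 23 kb at 400 bp, 20 kb at 1000 bp, 18.8 kb from 2200 to 3000 bp and 13 kb for the 69 regions over 3000 bp. The k+ only regions lay closer to the opposite list, at a median of 9.2 kb (quartiles 2 and 36 kb) from k-, and 55.9% (54.2 to 57.7%) of them were within 12.5 kb. The k- list is the longer of the pair, so a region has more k- than k+ regions to be near, and the part of list length in this difference was not tested.

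**Figure D3:**
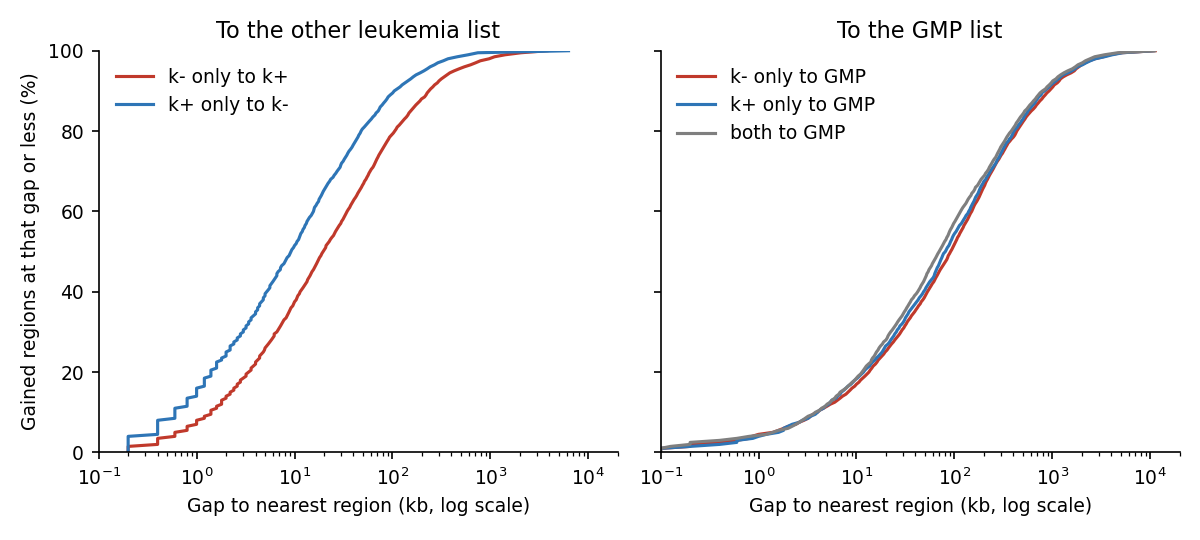
Cumulative share of gained regions (vertical axis, %) by the gap to the nearest region of another list (horizontal axis, kb, log scale), to the opposite leukemia list on the left and to GMP on the right. The median gap is 19.6 kb from k- only regions to k+ and 9.2 kb from k+ only regions to k-, while the curves to GMP have medians of 91.4, 80.8 and 69.8 kb for k- only, k+ only and both; regions touching GMP are drawn at the left edge.

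The k+ regions nearest to k- only regions were of all kinds. In 52.3% (51.1 to 53.4%) of cases the nearest k+ region belonged to a gained region of both lists, in 32.3% to a k+ only region and in 15.5% to a leukemia region that met GMP. These parts of the whole k+ list were 50.3, 34.2 and 15.5%. For the 3115 k- only regions within 12.5 kb of k+ the shares were 55.5, 28.3 and 16.2%. Flanking was mostly on a single side. A k+ region lay within 12.5 kb on both sides of 717 k- only regions, or 9.52%, on 1 side of 2398, or 31.8%, and on neither side of 4418, or 58.6%. The median width was 600 bp in each of these 3 sets.

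Neighbours within the k- list were compared with the list's own make-up, of which 55.2% was k- only. The nearest other k- region lay at a median of 6 kb, and it was itself k- only for 60.6% (59.5 to 61.7%) of the k- only regions. For k- regions that met k+ and no GMP region, the nearest other k- region lay at a median of 4.8 kb and was k- only in 45.4% (43.9 to 46.8%). The nearest neighbour met k+ in 34.1% (33.1 to 35.2%) and 49.3% (47.8 to 50.8%) of these sets. In the k- list, k- only regions were next to k- only regions more often than the k- regions that met k+ were. Overlap with k+, which the rule used, defines both the sets and the class of the neighbour. A k+ region that meets adjacent k- regions takes all of them out of k- only. The part of this in the order was not tested.

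At the median, k- only regions lay farther from the GMP catalogue than gained regions of both lists. The nearest GMP region lay at a median of 91.4 kb, with quartiles of 19.6 and 317.8 kb, against medians of 80.8 kb for k+ only and 69.8 kb for both. Within 100 kb of a GMP region were 3906 k- only regions, or 51.9% (50.7 to 53.0%), beside a background of 53.9% of all gained regions. The shares were 54.4% (52.7 to 56.2%) for k+ only and 57.3% (55.8 to 58.8%) for both. For k- only and both the shares within 25 kb were 28.2% (27.2 to 29.2%) and 31.7% (30.3 to 33.1%). Within 50 kb they were 38.9% (37.8 to 40.02%) and 43.4% (41.9 to 44.9%). Within 200 kb they were 66.1% (65.04 to 67.19%) and 68.7% (67.23 to 70.05%), with interval ends that nearly meet. Within 12.5 kb the intervals overlapped slightly, at 19.4% (18.5 to 20.3%) and 21.3% (20.04 to 22.5%). Closer in, the shares were alike, at 11.7 and 12.0% within 5 kb and at 4.57 and 4.48% within 1 kb. Because the intervals are too narrow, their separation or overlap is not a test. The intervals of k- only and k+ only overlapped at 12.5 and at 100 kb. Regions of the lost list lay at a median of 312.2 kb from k- only regions and those of the maintained list at 190.2 kb. For regions of both lists these medians were 312.8 and 134 kb. The maintained list is not simply the GMP list without the lost regions. On these chromosomes the lists hold 3186 GMP, 1368 lost and 1860 maintained regions.

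Some k- only regions bordered a GMP region directly. With the 1 bp rule a gained region may touch a GMP region and still be gained, and 92 k- only regions, or 1.22% (0.986 to 1.496%), did so. For 75 of these the GMP region was itself in the lost list, so a GMP enhancer counted as lost ended at the base pair where an enhancer counted as gained began. For the other 17 the GMP region was kept through another leukemia region. The lost list held the GMP region in 81.5% (72.1 to 88.9%) of these cases, against 86.5% (71.2 to 95.5%) for k+ only regions and 78.1% (66.03 to 87.5%) for both, with overlapping intervals. As background, these chromosomes hold 1368 lost regions and 3186 GMP regions. A touched GMP region counts as kept only where another leukemia region overlaps it, and the part of this in the lost share was not tested. Among the other gained regions, 1.16% (0.820 to 1.60%) of k+ only and 1.51% (1.16 to 1.92%) of both touched GMP, with overlapping intervals. The GMP regions touched by k- only regions had a median width of 400 bp, as had all lost GMP regions of these chromosomes. The widest k- only region of this kind, 3600 bp at chr13:95067401-95071000, ended where a lost GMP region of 1000 bp began. The next, 3200 bp at chr19:42248601-42251800, was followed by a lost GMP region of 600 bp. These examples were chosen for their width after their values had been seen.

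Gained regions with gaps of up to 12.5 kb were stitched into domains to see what k- only regions stood with. In 3480 domains no other gained class was present, and these held 4516 of the k- only regions, or 59.9% (58.8 to 61.1%). Of these domains 2710 were a single region. A further 1524 k- only regions, or 20.2%, shared 910 domains with regions of both lists, 636 or 8.44% shared 451 domains with k+ only regions, and 857 or 11.4% lay in 441 domains with both other classes. The corresponding share in domains of their own class was 47.2% (45.4 to 48.9%) for k+ only regions and 40.4% (38.9 to 41.9%) for regions of both lists. A class with more regions meets its own kind more often, and the part of class size was not tested.

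A GMP region lay within the stitching distance of 14.6% of the domains made of k- only regions alone. The share was 28.2% for domains with regions of both lists, 25.3% for those with k+ only regions and 42.6% for those with all 3 classes. Domain length moved with it: the median span was 0.8 kb for domains of k- only regions alone, 10.9 kb with regions of both lists, 6.4 kb with k+ only regions and 20 kb with all 3 classes. A longer span has more room for a GMP region, and its part was not tested. At the far end, 970 domains of k- only regions alone, with 1213 regions or 16.1% (15.3 to 17.0%) of all k- only regions, had neither a k+ nor a GMP region within 100 kb. A like share was not computed for the other gained classes.

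Stitching the k- only regions by themselves left 4071, or 54.04%, single, and put 1428, or 18.96% (18.1 to 19.9%), in domains of 3 or more. The domains with the most k- only regions held 10, 9 and 8 of them, and 11 domains tied at 6. Of these 11, the 2 with the most base pairs covered are described with the first 3. The first, chr2:3621201-3680400 in band qA1, held 10 k- only regions of 200 to 2600 bp within 59.2 kb. In the same span lay 3 gained regions of both lists, 1 k+ only region and 0 GMP regions. The first 6 k- only regions followed each other with no k+ region between them, and the 4 k+ regions lay in the rest of the span. Its nearest GMP region was 39 kb away.

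The second domain was made of k- only regions throughout. At chr10:59714801-59747400 in band qB4, 9 regions of 200 to 2000 bp covered 8400 bp, or 25.8% of a span of 32.6 kb. The nearest k+ region was 44.6 kb away and the nearest GMP region 104.6 kb away. The fifth domain was of the same kind, with 6 regions of 400 to 2000 bp covering 40.4% of chr2:60003601-60022400 in band qC1.1. Its nearest k+ region was 33 kb and its nearest GMP region 81.8 kb away. Within 100 kb lay 10 k+ and 18 k- regions, its own 6 included.

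The other 2 domains enclosed a GMP enhancer that leukemia kept. At chr6:129283601-129313200 in band qF3, 8 k- only regions of 200 to 1600 bp lay around 1 GMP region, which the ninth k- region of the span met. There were 0 k+ regions in the span and the nearest was 0.4 kb from its end. Within 100 kb lay 7 GMP regions, that of the span included. At chr1:140020401-140049200 in band qE4, 6 k- only regions covered 10600 bp, or 36.8% of 28.8 kb, and the widest measured 3400 bp. That span also held 4 k+ regions and 1 maintained GMP region. Within 100 kb of it lay 11 k+ and 3 GMP regions, those in the span included.

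**Figure D4:**
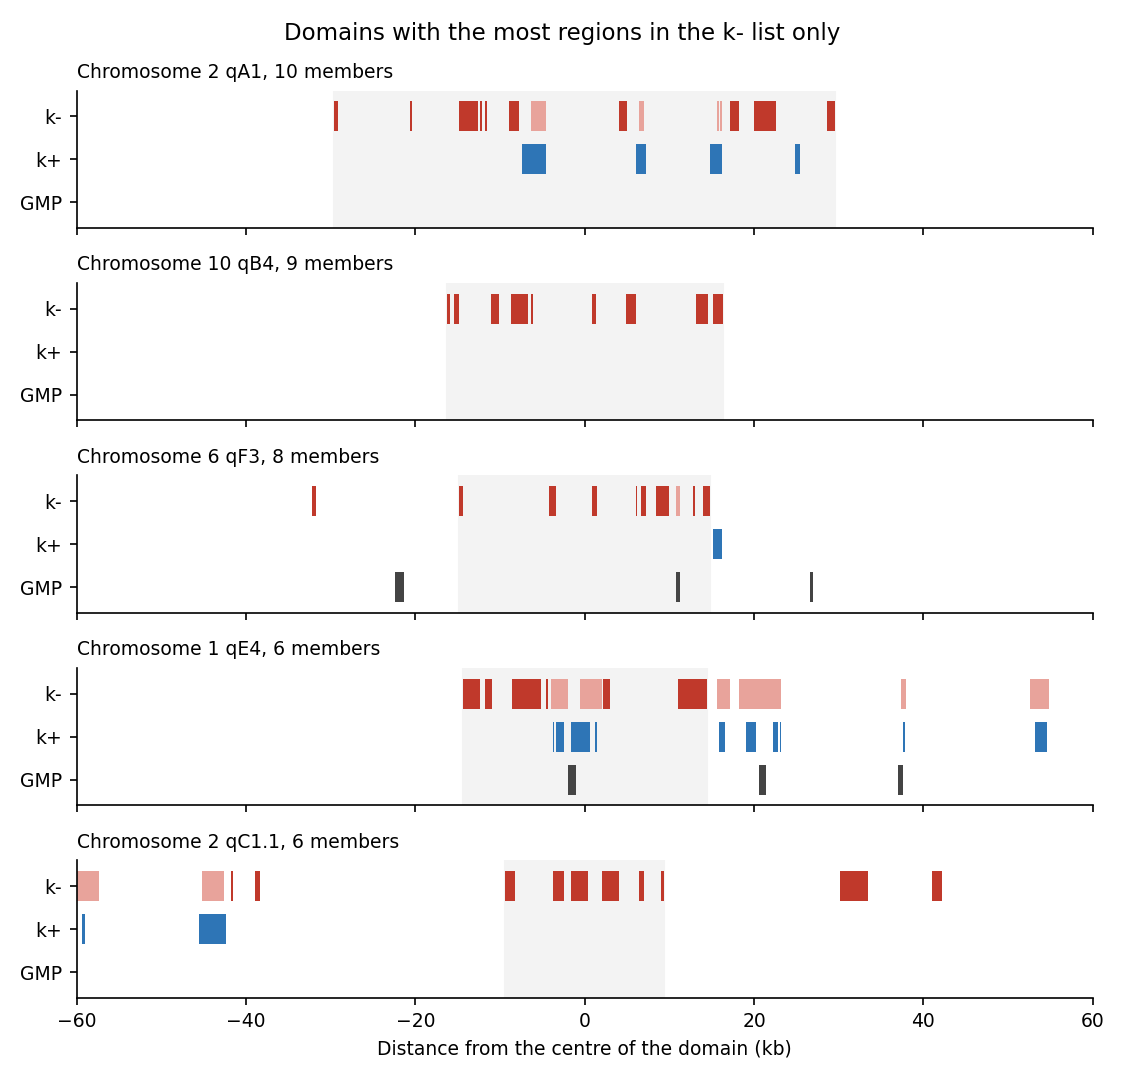
Maps of the 3 domains with the most k- only regions and of the 2 with the most base pairs covered among 11 tied at 6, showing k- regions (k- only in dark red, others pale), k+ regions (blue) and GMP regions (dark grey) by distance from the domain's centre (horizontal axis, kb), with the domain shaded. The domains on chromosome 10 (9 regions) and in band qC1.1 of chromosome 2 (6 regions) hold no k+ or GMP region, while the others lie among or beside k+ regions.

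The k- only regions farthest from any k+ region formed a group on chromosome 5 in band qD. They lay at chr5:81487001-81487800, chr5:81489201-81490000 and chr5:81506801-81507200, with widths of 800, 800 and 400 bp. The nearest k+ region was 3.76, 3.77 and 3.78 Mb away, and the nearest GMP region, a lost one, 3.67, 3.68 and 3.69 Mb away. No other k- region lay within 100 kb of the group. Having no GMP region within 100 kb was near the background, at 48.1% of k- only and 46.1% of all gained regions. Being also the sole gained region of a domain was counted for k- only regions alone. In all, 1547 k- only regions, or 20.5% (19.6 to 21.5%), were the sole gained region of their domain with no GMP region within 100 kb. The 3 widest of these were the regions on chromosomes 1 and 13 given above and one of 4000 bp at chr7:150729001-150733000 in band qF5, which stood 83.2 kb from k+ and 1.20 Mb from GMP.

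On the scale of 1 Mb windows, k- only regions were widespread. Of 2482 windows on chromosomes 1 to 19, 1545 held at least 1 k- only region, with a median of 4 in those. A k+ region was present in 1483 windows and a GMP region in 1094. Of the 1172 windows with a k+ only region, 48 held no k- region. The k- list is the longer, and the part of list length in these counts was not tested. In 194 windows, or 12.6% (10.9 to 14.3%) of those with a k- only region, there was no k+ region, and these windows held 384 k- only regions, or 5.10%. The window of this kind with the most, chosen after its values had been seen, was chr11:20000001-21000000 with 9 k- only regions, 0 k+ and 3 GMP regions.

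No chromosome stood apart. The k- only share of gained regions ranged from 46.2% (41.8 to 50.6%) on chromosome 19 to 53.0% (49.5 to 56.4%) on chromosome 6, and on all 19 chromosomes the interval held the share over all. Density varied more, from 2.27 k- only regions per Mb on chromosome 3 to 4.34 on chromosome 11, around 3.05 over all. The k+ list held 2.78 regions per Mb on chromosome 3 and 5.20 on chromosome 11, and was densest on chromosome 19 at 5.82. The median width was 600 bp on each of the 19 chromosomes. Chromosome X lies outside the rule. There 139 of 230 gained regions met k- and not k+, or 60.4% (53.8 to 66.8%). That interval left out the 50.4% of chromosomes 1 to 19.

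**Figure D5:**
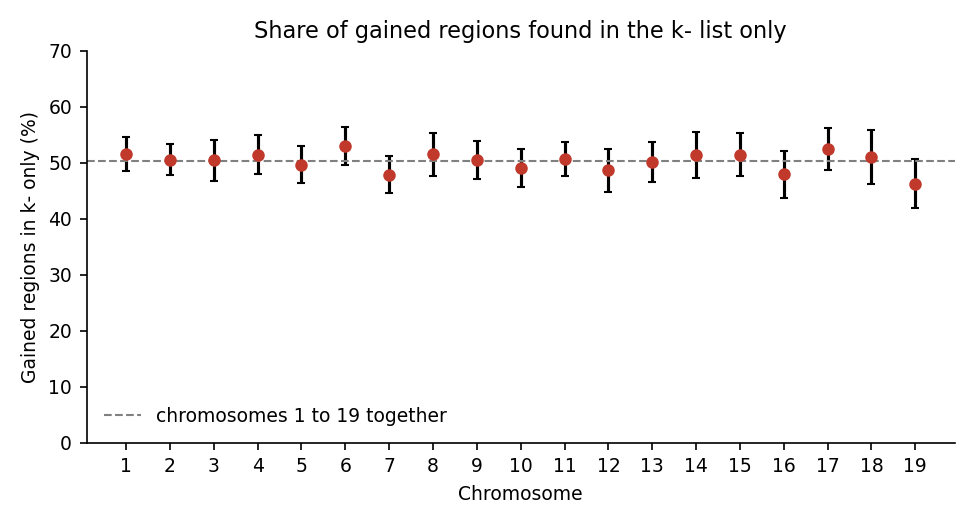
Share of gained regions that were k- only (vertical axis, %) on chromosomes 1 to 19 (horizontal axis), as points with exact 95% intervals, and the share over all as a dashed line. The points lie between 46.2% on chromosome 19 and 53.0% on chromosome 6, and every interval crosses the line.

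Chromosome bands gave a similar picture. Light Giemsa bands are known to be rich in genes and G+C, and the darkest are known to be poor in both. Light bands take up 41.2% of these chromosomes and held 47.3% (46.2 to 48.4%) of k- only regions, at 3.498 per Mb. The darkest bands take up 31.2% and held 22.4% (21.5 to 23.4%), at 2.19 per Mb. The k+ only regions were at 46.5 and 23.1%, regions of both lists at 47.5 and 22.01%, and the GMP list at 46.3 and 21.8%, so all 4 sets were distributed over light and darkest bands with overlapping intervals.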

How the data were processed

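The values were start and end positions from 6 lists deposited by the authors (k+, k-, GMP, gained, lost and maintained), each with 3 columns and 0 of score. Per the submitters' processing notes, BWA, Picard, MACS2, HOMER and deepTools were used with build mm9; the sources used here do not give the rule for calling a region an enhancer. Per the labels' protocols, chromatin was indexed and pooled before immunoprecipitation. All positions were multiples of 200 bp and are printed counted from 1. Depth per sample is unknown.

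Regions sharing 1 bp or more were found with pandas 2.3.3 and NumPy 2.4.6 in Python 3.11.15, intervals with SciPy 1.17.1 and figures with matplotlib 3.10.9; bedtools 2.31.1 gave the same 7533 regions. Gaps run from edge to edge on a chromosome, and regions touching have a gap of 0. Bands and chromosome lengths came from circlize 0.4.16 and GenomeInfoDb 1.38.1 in R 4.3.3. The code was tested on simulated data with known classes and gaps. No test was run, as each group has 1 sample.

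Named regions were the 5 widest, the 5 domains with the most k- only regions (ties by base pairs covered, then position), the 3 farthest from k+, the 3 widest of those single in their domain without GMP within 100 kb, the closest to k+ and the one at the median gap. The regions and these rules were chosen with earlier results of these data known. Genes, sequence and motifs were not analysed here, since no genome or annotation of build mm9 was used.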

Additional observations from a re-analysis of the deposited data

How the results depend on the processing

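No paired analysis was possible because there was 1 sample per group, and leaving out a replicate was not applicable. Sequence content and genes near the regions were not run under other settings. No result had a test or a direction to turn. Of 15 alternative values, 6 stayed within the limits set for a change and 9 did not. Staying within them does not mean unchanged, since the 6 include a count of 8631 k- only regions against 7533. Asking for 50% of the region's length in place of 1 bp gave 8631 k- only regions, leaving out those within 1 kb of k+ gave 6925, and adding chromosome X, which was chosen after the data had been seen, gave 7672. Lists of regions of 800 bp or more gave 4029, by construction of shorter lists. With the k- list cut to its widest regions, as many as k+ holds, 35.7% of the gained regions still met were k- only, against 50.4%. This fall is by construction of a cut on width. The share near k+ was 26.0% at 5 kb and 54.2% at 25 kb, and the share in domains of 3 or more was 8.58% and 32.5% at those distances. Among k- only regions of 800 bp or more the latter share was 6.497%, by construction of a thinner list. A GMP region lay within 50 kb of 38.9% and within 200 kb of 66.1%. The median width stayed at 600 bp when k- only regions within 1 kb were joined. Without scores in the lists, how far read depth set the length of each list was not tested.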
